A study of Mus musculus with 6 samples.

Results

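Atoh1, Etv1, Zic1 and Zic4 are transcription factor genes of the cerebellar granule neuron lineage. The data described here are the 22 peaks of H3K9me3 that the deposited annotation places nearest to the transcription start site (TSS) of 1 of these 4 genes, among 34673 peaks in all. Members were chosen by gene name, and every peak so assigned was kept. Atoh1 had 6 peaks, Etv1 8, Zic1 5 and Zic4 3.

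H3K9me3, trimethylated lysine 9 of histone H3, was profiled by ChIP-seq in Bergmann glia (BG), astroglia with radial fibres that cross the cerebellar cortex, of C57BL/6 mice at postnatal day 10. There were 2 libraries from mutant BG, 2 from WT BG and 2 control libraries, whose titles name input while their antibody label names IgG. For its comparison of expression at this age, the study sorted control BG from NesGFP mice. Mutant BG came from NesGFP mice that also lacked Setdb1 through mGFAP-Cre and Setdb1 flox/flox alleles. The ChIP methods refer back to the isolation of BG without naming the mice, so the same mice are assumed here. This Cre is active in the cerebellum in granule cells, astrocytes and oligodendrocytes as well as BG, but not in Purkinje cells. The deposited list holds the peaks that the study defines as found in WT BG and not in mutant BG (WT-specific peaks), with 1 score a peak and no value per library.

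The heading of the list can be read as naming input, mutant BG or both as the background of the call, so whether a listed peak was lost or only lower in mutant BG, and what its score is relative to, cannot be told. No spread between replicates, depth or size of the difference from mutant BG can therefore be given for any of the 22 peaks. The sources used here do not tell whether the 2 libraries of a genotype came from separate animals. In sorted cells measured in bulk, a peak carried by a part of the cells and a weaker peak carried by all of them cannot be told apart. A peak list holds no expression level, so the BG label could not be checked by markers. Peaks were assigned to 4 of 8 BG marker genes, 2 of 4 granule neuron, 1 of 2 Purkinje cell and 2 of 3 oligodendrocyte lineage marker genes, and to 50.9% of 21000 protein-coding genes.

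Atoh1 encodes a basic helix-loop-helix factor that specifies granule neuron precursors in the rhombic lip and keeps them dividing. Zic1 and Zic4 encode zinc finger factors of the same precursors and lie side by side in opposite directions, and loss of the pair disturbs cerebellar growth. Etv1 encodes an ETS factor that acts in the maturation of granule neurons. Setdb1 is a histone methyltransferase that places H3K9me3, and it is best known for silencing endogenous retroviruses such as the ERVK family, which includes the IAP elements.

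The central 200 bases of the peak with the highest score of each gene are shown, since these 4 peaks have the top score among those assigned to each gene and differ in what they lie on. Positions are on GRCm38.p6, which has the coordinates of mm10, and the letters are the plus strand of RefSeq's assembly read 5′ to 3′. Capitals mark the bases that RefSeq's assembly masks as repeats.
Atoh1 chr6:64447939-64448138: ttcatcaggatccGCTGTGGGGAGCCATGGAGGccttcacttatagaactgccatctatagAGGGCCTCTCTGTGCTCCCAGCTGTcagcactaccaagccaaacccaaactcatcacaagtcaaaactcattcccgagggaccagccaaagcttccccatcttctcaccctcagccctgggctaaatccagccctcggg
Etv1 chr12:39365825-39366024: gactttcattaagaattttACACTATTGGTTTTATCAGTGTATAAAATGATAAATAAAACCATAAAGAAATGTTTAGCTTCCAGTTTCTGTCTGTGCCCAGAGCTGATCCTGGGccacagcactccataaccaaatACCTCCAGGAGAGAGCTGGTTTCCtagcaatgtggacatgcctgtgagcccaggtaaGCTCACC
Zic1 chr9:90905994-90906193: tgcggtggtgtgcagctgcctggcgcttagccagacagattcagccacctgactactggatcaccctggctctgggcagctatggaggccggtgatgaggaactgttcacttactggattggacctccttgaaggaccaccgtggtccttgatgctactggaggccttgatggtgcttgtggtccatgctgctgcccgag
Zic4 chr9:91777016-91777215: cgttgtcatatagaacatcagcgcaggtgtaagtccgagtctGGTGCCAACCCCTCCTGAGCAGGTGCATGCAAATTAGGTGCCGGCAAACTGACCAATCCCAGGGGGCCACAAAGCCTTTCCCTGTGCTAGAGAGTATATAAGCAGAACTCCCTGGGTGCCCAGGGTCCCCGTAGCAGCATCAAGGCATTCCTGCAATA
The Atoh1 sequence comes from a peak on RMER13B, an ERVK element, and has 45 masked bases and 3 CpG sites. The Etv1 sequence, on MusHAL1, which the annotation puts in the L1 family, has 126 masked bases and no CpG site. The Zic1 sequence is from the only 1 of the 22 peaks that the authors centre outside repeats, has no masked base and 5 CpG sites, and is 58.5% G or C. The Zic4 sequence, on RLTR27, a long terminal repeat of the ERVK family, has 158 masked bases and 5 CpG sites.

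None of the 22 peaks lay at a promoter or in the body of its gene. All 22 were over 50 kb from the TSS, as were 42.4% of all peaks, and none was within 10 kb, where 19.4% of all peaks lay. The median distance from the TSS was 280.1 kb (95% interval of the median 201.7 to 408.1 kb, n = 22), against 37.4 kb for all peaks. Of the 22 peaks, 18 were downstream of the TSS (81.8%, 95% Wilson interval 61.5 to 92.7), against 55.9% of all peaks. The 4 upstream peaks all belonged to Atoh1. These intervals cover counting error only. The share downstream also depends on the assignment to the nearest TSS. The TSSs of Zic1 and Zic4 are 3.20 kb apart and point away from each other, so almost no peak could be assigned upstream of either. Upstream of Etv1, 3 peaks were assigned to 4930428E07Rik.

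**Figure D1:**
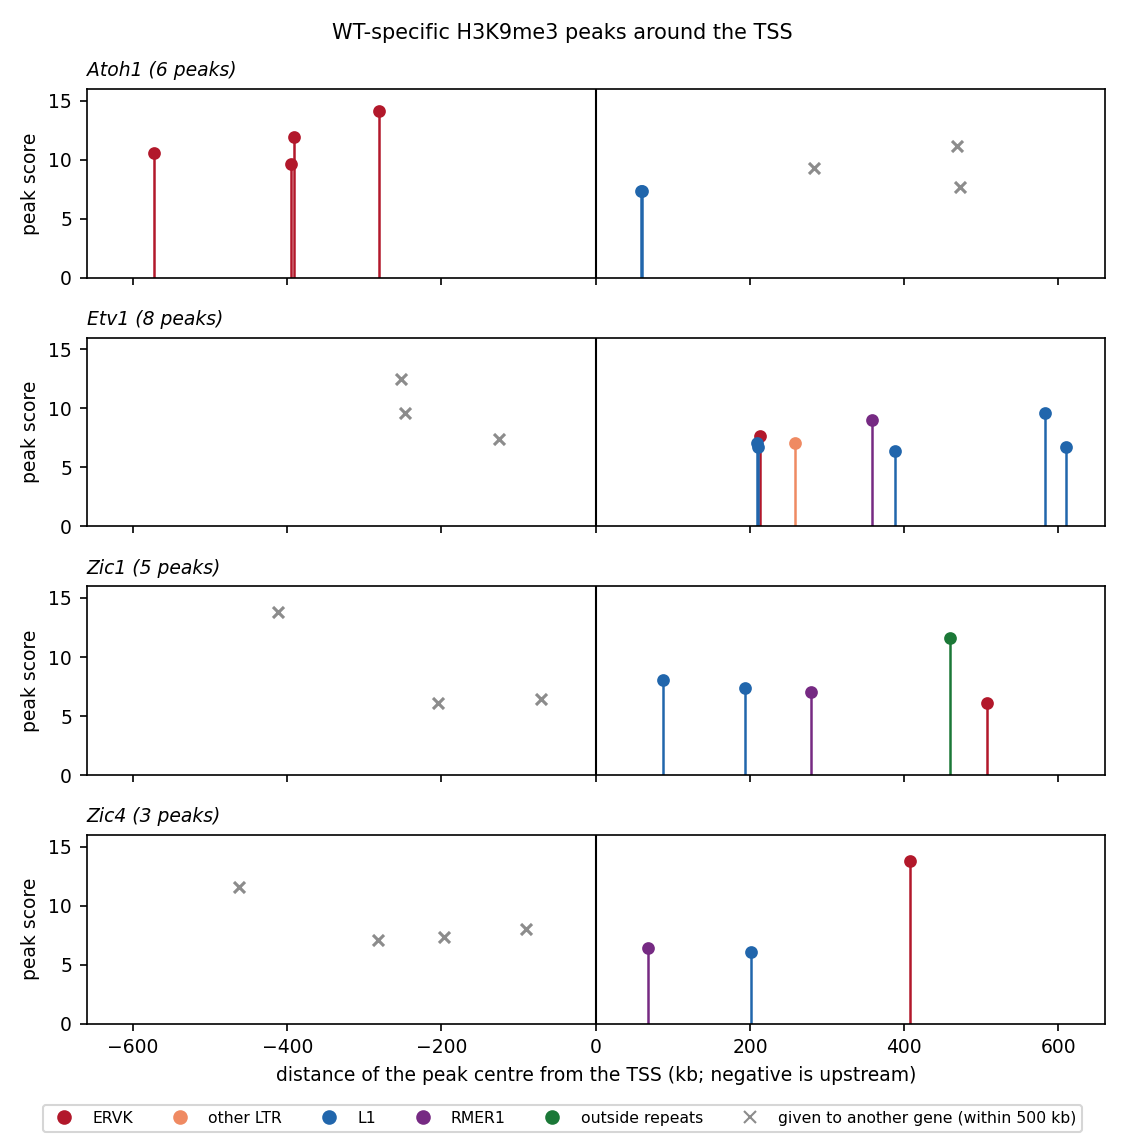
Distance of each WT-specific H3K9me3 peak from the TSS (kb, x axis) against the peak score (y axis), 1 panel a gene, with colours for the repeat at the centre. Grey crosses are peaks within 500 kb that were assigned to another gene; the 50 kb to either side of each TSS held no peak, and the Atoh1 peaks upstream had higher scores than its downstream pair.

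Atoh1 (gene ID 11921, chromosome 6, 64729125 to 64731245, plus strand, 2.12 kb) had 4 peaks upstream and 2 downstream. The 4 upstream peaks were classed as intronic. The farthest, at 64156014 to 64156641, was 572.8 kb upstream, on IAPEz-int, with a score of 10.6. The next pair lay on MMERVK10C-int, 4.57 kb apart, at 64333477 to 64334258 (395.3 kb upstream, score 9.63) and 64338120 to 64338761 (390.7 kb upstream, score 11.9).

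The Atoh1 peak at 64447663 to 64448414, 281.1 kb upstream on RMER13B, had the highest score of the 22, 14.1, a score reached by 5.06% of the list. All 4 upstream peaks were thus on ERVK elements. Downstream, a pair 1.24 kb apart lay between genes at 64787066 to 64787566 (58.2 kb, on Lx3A) and 64788247 to 64788873 (59.4 kb, on L1Md_A), both on L1 elements and both with a score of 7.38. The lowest of the upstream scores was above the downstream ones, with no replicate to give either an error.

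Etv1 (gene ID 14009, chromosome 12, 38780082 to 38870483, plus strand, 90.4 kb) had 8 peaks, all downstream and classed as intergenic by the authors, of which 1 overlapped a RefSeq gene body. Their scores were 6.42 to 9.63 with a median of 7.06, which is the median of the whole list. The nearest 3 formed a group at 38993168 (209.7 kb, Lx, score 7.06), 38994281 (210.8 kb, Lx, score 6.74) and 38997118 (213.7 kb, RMER13B, score 7.70). A single peak followed at 39041586 (258.1 kb), on RLTR1A2_MM of the ERV1 family, with a score of 7.06.

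Farther out from Etv1, the peak at 39141902 to 39142599 (358.5 kb) was on RMER1C and had a score of 8.99. The remaining 3 lay on L1 elements, at 39171473 (388.0 kb, Lx3B, score 6.42), 39365674 (582.2 kb, MusHAL1, score 9.63) and 39393300 (609.8 kb, L1Md_F2, score 6.74). L1 elements thus held 5 of the 8 peaks of Etv1, and 7 of the 8 were 500 bp wide, the width of 77.1% of the list.

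The upstream side of Etv1 was not free of peaks, although none there was assigned to it. A peak on RLTR1B lay 125.6 kb upstream with a score of 7.38, and a pair on L1Md_T lay at -247.4 and -252.1 kb with scores of 9.63 and 12.5. These 3 were assigned to 4930428E07Rik, and the pair was annotated in intron 22 of 24 of the transcript NM_178681. With protein-coding TSSs only, these 3 went to Etv1, which then had 11 peaks.

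Zic1 (gene ID 22771, chromosome 9, 91358058 to 91365768, minus strand, 7.71 kb) had 5 peaks, all downstream, which on this strand means at lower positions, and all classed as intergenic, of which 1 overlapped a RefSeq gene body. The nearest was at 91278027 (87.5 kb), on L1Md_T, with a score of 8.02. The next were at 91172046 (193.5 kb, L1VL2, score 7.38) and 91086499 (279.1 kb, RMER1B, score 7.06). These 3 scores were at or above the list's median of 7.06.

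The peak at 90905777 to 90906409, 459.7 kb from the Zic1 TSS and outside repeats, had a score of 11.6, reached by 9.39% of the list. The farthest, at 90858705 (506.8 kb), was on IAPEz-int and had a score of 6.10, reached by 83.4% of the list. The 3 farthest peaks of Zic1 were nearer to the TSS of Gm28703 once all RefSeq genes were used, and nearest to Zic1 again among protein-coding genes.

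Zic4 (gene ID 22774, chromosome 9, 91365631 to 91389351, plus strand, 23.7 kb) had 3 peaks, all downstream and classed as intergenic, of which 2 overlapped a RefSeq gene body. They were at 91436677 (68.0 kb, RMER1B, score 6.42), 91570393 (201.7 kb, L1Md_F2, score 6.10) and 91776865 (408.1 kb, RLTR27, score 13.8). The last was the second highest score of the 22, reached by 5.37% of the list, while the other two were below the list's median. The TSSs of Zic1 and Zic4 are 3.20 kb apart, and a span of 158.7 kb around both held no WT-specific peak.

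The median score was 10.1 for Atoh1, 7.06 for Etv1, 7.38 for Zic1 and 6.42 for Zic4. The ranges overlapped between any pair of these genes. Over the 22 peaks the median score was 7.38 (95% interval of the median 6.74 to 9.63), against 7.06 for all peaks, so that the interval held the value of the list. A score at or above the list's median was found for 16 of 22 (72.7%, interval 51.8 to 86.8), against 51.7% of all peaks and 50.7% of those over 50 kb from a TSS. The 16 include peaks with a score equal to that median, those of Etv1 at 209.7 and 258.1 kb and of Zic1 at 279.1 kb. The interval also treats neighbouring peaks as independent.

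All 4 genes have an assigned peak by the rule that chose them, as did 50.9% of 21000 protein-coding genes. Of these genes 4.74% had at least the 6 peaks of Atoh1, 2.32% the 8 of Etv1, 6.82% the 5 of Zic1 and 16.5% the 3 of Zic4. The nearest-TSS rule gives more peaks to a gene with distant neighbours. Atoh1 and Etv1 have them on both sides, and Zic1 and Zic4, which neighbour each other, on 1 side. The stretch of chromosome nearer to the gene's TSS than to that of any other protein-coding gene was 893.3 kb for Atoh1, 1080.2 kb for Etv1, 549.1 kb for Zic1 and 418.2 kb for Zic4, against a median of 49.0 kb for all protein-coding genes.

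The stretches are bounded by Smarcad1 on the downstream side for Atoh1, by Dgkb and Arl4a for Etv1, by Tbc1d2b and Zic4 for Zic1, and by Zic1 and Plscr5 for Zic4. Only 2.17%, 1.49%, 4.54% and 6.36% of genes had stretches as long as those of Atoh1, Etv1, Zic1 and Zic4, in that order. In these 2940.8 kb lay 25 peaks, the 22 assigned ones and the 3 of 4930428E07Rik, which is 8.50 per Mb (exact 95% Poisson interval 5.50 to 12.5). The whole list has 12.7 per Mb over the chromosomes. The interval treats the peaks as independent, although some lie close together. With peaks within 10 kb counted as 1, the density of the stretches was 6.80 per Mb, and the whole list was not counted in this way.

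Per gene the density was 6.72 per Mb for Atoh1, 10.2 for Etv1, 9.11 for Zic1 and 7.17 for Zic4. The 1336 protein-coding genes with a stretch at least as long as that of Zic4 had a median of 7.12 per Mb, with quartiles of 4.53 and 11.1, and 98.1% of them had a peak. Each of the 4 densities was between these quartiles. The number of peaks per length was thus within the middle range of genes with such stretches.

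The closest peak of any assignment was 58.2 kb from the TSS of Atoh1, 125.6 kb for Etv1, 71.2 kb for Zic1 and 59.0 kb for Zic4, where the Zic4 value is from a second annotated TSS. The median was 22.7 kb over all protein-coding genes and 38.4 kb over the 1336 with long stretches. A closest peak as far or farther was found for 20.6% of all protein-coding genes in the case of Atoh1, 5.63% for Etv1, 15.4% for Zic1 and 20.3% for Zic4. No peak within 50 kb was also the case for 25.0% of genes, and no peak within 100 kb, as for Etv1, for 8.74%.

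**Figure D2:**
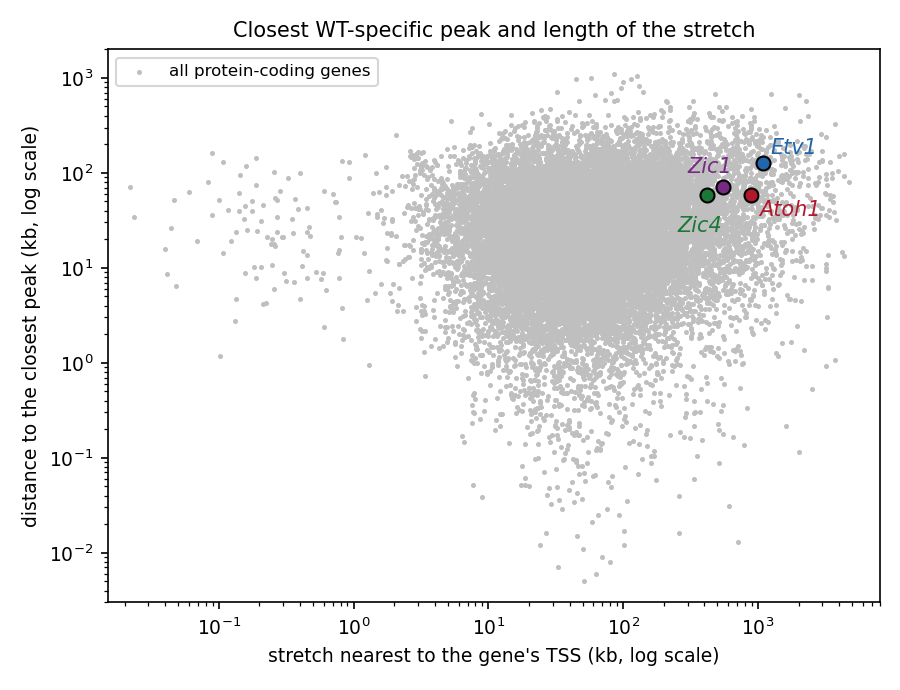
Distance from the TSS to the closest WT-specific peak of any assignment (kb, log scale, y axis) against the length of the stretch nearest to the TSS (kb, log scale, x axis) for 21000 protein-coding genes, in grey. The 4 coloured points are Etv1, Atoh1, Zic1 and Zic4, which have long stretches and closest peaks 58.2 to 125.6 kb away, within the range of the other genes.

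The span free of peaks around the TSS was 339.3 kb for Atoh1 and 339.0 kb for Etv1. Among protein-coding genes 9.66% and 9.73% had one as long, and among the 1336 with long stretches 27.5% and 27.6%. For Zic1 and Zic4 the shared span of 158.7 kb was matched by 34.3% of protein-coding genes and was below the median of 180.0 kb for those with long stretches. Spans as long as those of the 4 genes were thus found around 27.5% or more of the genes with distant neighbours.

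By class, 18 of the 22 peaks were intergenic (81.8%, interval 61.5 to 92.7) and 4 intronic, those upstream of Atoh1. By any overlap with a RefSeq protein-coding or lncRNA gene body, 4 of the 18 were in a gene, which leaves 63.6% of the 22 outside genes. Of all peaks 59.4% were intergenic, and of those over 50 kb from a TSS 73.2%. A repeat lay at the centre of 21 of the 22 (95.5%, interval 78.2 to 99.2), against 54.0% of all peaks and 63.4% of those over 50 kb from a TSS. The share was thus above that of distant peaks by more than the counting interval, and no test was made of the difference. These distant peaks lay at a median of 128.5 kb and the 22 at 280.1 kb, so the sets were not matched for distance.

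L1 elements, long interspersed elements that copy themselves through RNA, were at the centre of 10 peaks (45.5%, interval 26.9 to 65.3), against 23.1% of distant peaks. ERVK elements were at 7 (31.8%, interval 16.4 to 52.7), against 17.3% of distant peaks. RMER1 elements, which the annotation puts in the class called Other, were at 3 (13.6%, interval 4.75 to 33.3), against 1.65%. The interval for ERVK held the share of distant peaks, while that for L1 did not. RMER1 elements were made a group by their name, which was not planned, so their shares are given as a description only. Neighbouring peaks are not independent, and with peaks of 1 gene within 10 kb counted as 1, L1 had 7 of 18 (38.9%, interval 20.3 to 61.4), against 24.6% of distant peaks counted in the same way, so that this interval held the share of distant peaks too. Counted in this way, RMER1 had 3 of 18 (16.7%, interval 5.84 to 39.2), against 1.82%, and any repeat 17 of 18 (94.4%, interval 74.2 to 99.0), against 64.8%.

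**Figure D3:**
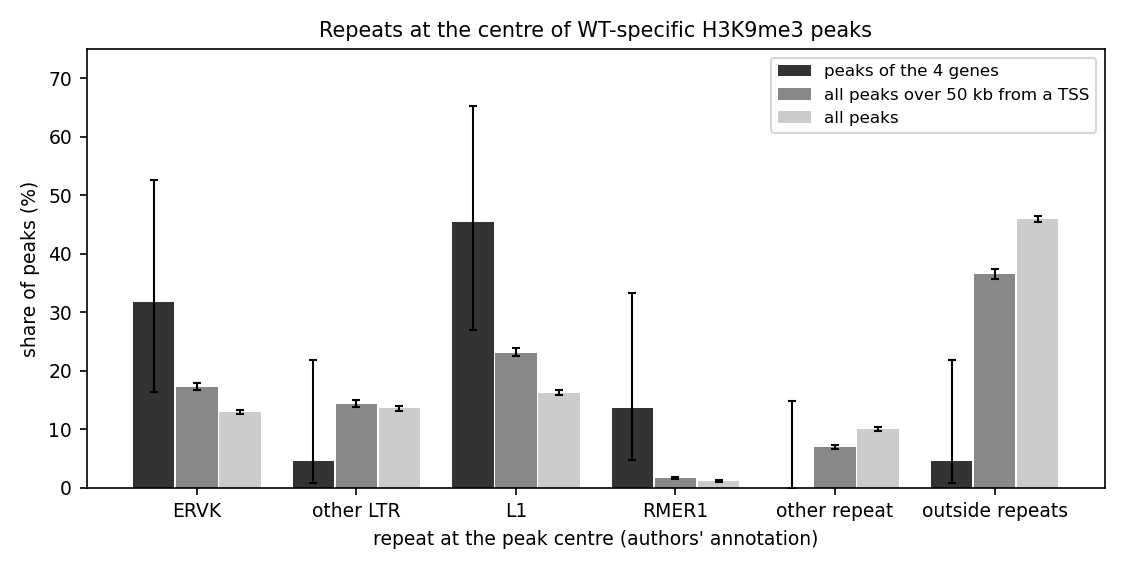
Share of peaks (%, y axis) by the repeat at the peak centre (x axis) for the 22 peaks of the 4 genes, all peaks over 50 kb from a TSS and all peaks, with 95% Wilson intervals as bars. L1 had 45.5% of the 22 peaks and outside repeats had 4.55%, against 23.1% and 36.6% of distant peaks.

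The 4 genes shared the repeat groups unevenly. ERVK elements held 4 peaks of Atoh1 and 1 each of Etv1, Zic1 and Zic4, and L1 elements held 2 of Atoh1, 5 of Etv1, 2 of Zic1 and 1 of Zic4. The 7 ERVK peaks had a median score of 10.6 (6.10 to 14.1), and the 10 L1 peaks had a median of 7.22 (6.10 to 9.63). In the whole list the medians were 7.70 and 6.74, so ERVK peaks were the higher there too.

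The sequence under the peaks differed between the repeat groups in CpG sites, given as the number observed over that expected from the C and G content. The median was 0.41 in the 7 ERVK peaks (0.14 to 0.70) and 0.13 in the 10 L1 peaks (0.036 to 0.33), against 0.31 and 0.15 in all ERVK and L1 peaks. GC content had a median of 48.9% over the 22 and 49.1% over all peaks. The masked share of the sequence had a median of 82.4% over the 22, against 29.8% of all peaks and 40.0% of distant ones. The repeat named is the one at the peak centre, and it need not fill the peak. The RMER1C peak of Etv1 was 6.16% masked, as was the Zic1 peak outside repeats. The RMER1B peaks were 9.58% (Zic4) and 26.5% (Zic1) masked, and the L1VL2 peak of Zic1 19.6%.

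The authors placed each read with several possible origins at 1 best location, so how often the sequence of a peak recurs in the assembly bears on where its reads could be placed. In 17 of the 22 peaks every window of 150 bases, the read length, occurred once in the assembly (77.3%, interval 56.6 to 89.9), against 82.1% of all peaks and 76.2% of distant ones. The 8 peaks of Etv1 and 3 of Zic4 were all among these 17.

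Both IAPEz-int peaks had no window that occurred once. The windows of the Atoh1 one occurred a median of 192 times and up to 447, and those of the Zic1 one a median of 73 times and up to 607. Of the MMERVK10C-int peaks of Atoh1, 27.3% of the windows of the one with a score of 9.63 and 63.5% of the one with a score of 11.9 occurred once. The L1Md_T peak of Zic1 had 97.4% such windows. Reads from other copies could have been placed at these 5 peaks, and their part in the scores was not tested.

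Other peaks on L1Md and ERVK elements had sequence found once. The L1Md_A peak of Atoh1 was unique in every window, as were 9.73% of the 370 L1Md_A peaks of the list, and the Zic1 L1Md_T peak was nearly so where 3.96% of the 732 L1Md_T peaks were unique in every window. The RMER13B peak of Atoh1, with the highest score, was also unique, as were 98.7% of the 78 RMER13B peaks. Uniqueness of the windows does not count mates or mismatches.

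**Figure D4:**
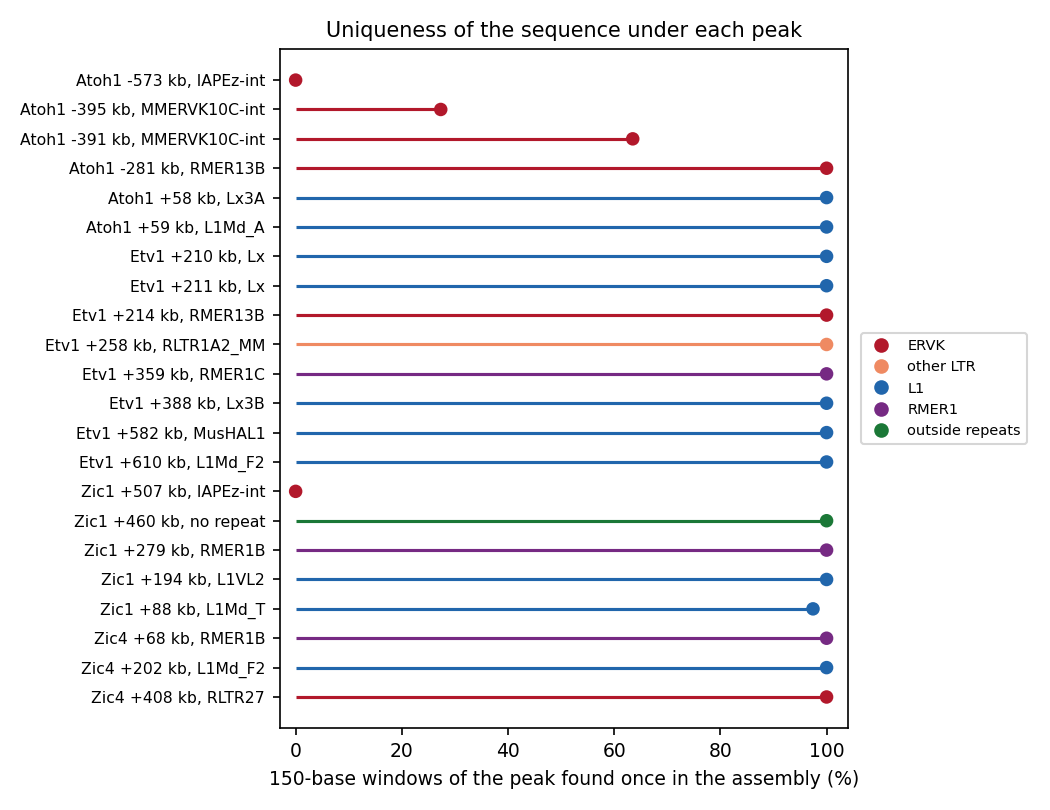
Share of 150-base windows of each of the 22 peaks that occur once in the assembly (%, x axis), with 1 row a peak named by gene, distance from the TSS and repeat, coloured by repeat group. The 2 IAPEz-int peaks are at 0%, the MMERVK10C-int peaks at 27.3% and 63.5%, and 17 peaks at 100%.

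The core motif of the NFI factors, TTGGCA, the only motif searched, on both strands, was found in 5 of the 22 peaks (22.7%, interval 10.1 to 43.4), against 29.1% of all peaks. It occurred once in the IAPEz-int peak and the MMERVK10C-int peak with the lower score of Atoh1 and in the IAPEz-int peak of Zic1, and 2 times each in the L1Md_F2 peak of Etv1 and the RLTR27 peak of Zic4. One of the last 2 lies in the Zic4 sequence printed above, as TGCCAA on the plus strand. A match describes the letters in the window only.

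Of 37 genes of the granule neuron lineage, 21 had an assigned peak (56.8%), against 50.9% of protein-coding genes, and of the 33 besides the members 17 had one (51.5%). A peak within 10 kb of the TSS was found for 6 of the 37 (16.2%), against 22.0% of protein-coding genes. These were Cbln1 (5.03 kb), a synapse organiser that granule neurons secrete, Gabra6 (8.65 kb) and Grin2c (4.91 kb), receptor subunits of mature granule neurons, Gli1 (3.37 kb), a target of Sonic hedgehog signalling, Lmx1a (4.80 kb for the closer of 2 peaks), a factor of the rhombic lip, and Mycn (7.38 kb, score 10.6), which drives precursor division. None of the 4 regulators was among them.

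The most peaks besides those of the 4 regulators were assigned to Gli2, with 11 peaks and the closest at 10.9 kb. Ccnd1, the cyclin D1 gene, Lmx1a and Mycn had 6 each, and Meis1, a homeobox factor of granule neurons, had 3. The 54 peaks of the other lineage genes lay at a median of 71.2 kb and 26 were on a repeat (48.1%, interval 35.4 to 61.1), while 21 of the 22 peaks of the 4 regulators were. The intervals of these shares do not overlap, but these intervals cover counting error only, and neighbouring peaks are not independent. The 22 peaks lay at a median of 280.1 kb, so the sets were not matched for distance. No test was made of the difference.

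In their families, Zic2 and Zic5, a pair arranged like Zic1 and Zic4, had no assigned peak and shared a free span of 116.3 kb. Etv4 had none and Etv5 had 2, the closest at 20.0 kb. Peaks were thus assigned to some members of both families and not to others, where 50.9% of all protein-coding genes had one. These relatives had shorter stretches than the 4 regulators, at 34.3 kb for Zic2, 146.8 kb for Zic5, 80.7 kb for Etv4 and 196.2 kb for Etv5. With protein-coding TSSs only, Zic5 had 1 peak.

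**Figure D5:**
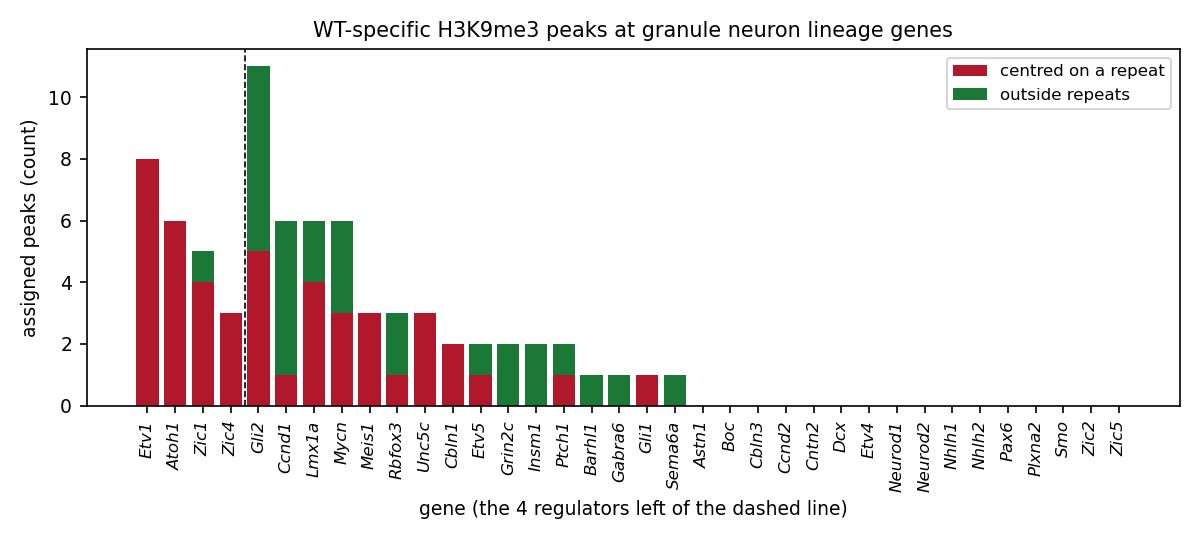
Number of WT-specific peaks assigned to genes of the granule neuron lineage (count, y axis; genes on the x axis), with the 4 regulators left of the dashed line, split into peaks centred on a repeat and outside repeats. Of the peaks of the regulators 1 of 22 was outside repeats, and the 11 peaks of Gli2 were the most of any gene shown.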

How the data were processed

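H3K9me3 ChIP-seq came from 6 libraries of BG at postnatal day 10. The authors aligned them to mm10 (Bowtie2 2.2.8), placed reads with several possible origins at the best one, and called peaks (HOMER 4.10.1), with both versions taken from the submitters' processing notes. The call required an excess of tags over the local background. The heading of the list leaves unclear whether input, mutant BG or both served as control, and the sources used here do not tell how libraries were merged. The only value per peak is the peak score deposited by the authors, whose scale is not given, so it was used to rank peaks. The authors' TSS distance, class and repeat were used as annotation.

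Members and gene lists were chosen with earlier results of these data known. Genes named were the 4 members with all their peaks, the 5 other lineage genes with most peaks (ties by symbol), those with a peak within 10 kb, the Zic and Etv families and the genes bounding each stretch. The results of 2 of these genes are not reported here. Positions were set beside RefSeq GRCm38.p6 (mm10). The authors' transcript was found for 34306 peaks (99.2%), and its distance lay within 2 bp for 91.7% of these. The nearest gene was the same for 87.9% of all peaks and for 19 of the 22. Windows of 150 bases were searched on 66 chromosomes and scaffolds, and both steps were tested on simulated data. Intervals (95%, Wilson for shares and Poisson for the density) reflect counting error alone. Depth is unknown. Analyses used Python 3.11.15, pandas 2.3.3, numpy 2.4.6 and scipy 1.17.1.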

Additional observations from a re-analysis of the deposited data

How the results depend on the processing

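No paired analysis was possible because no value of a single library was used here, and for the same reason no replicate could be left out. With only peaks outside repeats, 1 peak was left, with a score of 11.6, 459.7 kb from its TSS, 100% intergenic, at 0.34 per Mb of the stretches, and the share on repeats then has no value by construction. With peaks within 250 kb of the TSS whichever gene was nearest, the 4 genes had 11 peaks, all on repeats (100%), at a median of 192.7 kb, and all 37 lineage genes had a peak. A peak within 250 kb is common, since protein-coding genes had a median of 8 and a lower quartile of 5. Atoh1 had 2, Etv1 5, Zic1 4 and Zic4 4, at or below that quartile. With only peaks whose windows were all unique, chosen after seeing the data, 17 peaks were left, 94.1% of them intergenic, since 3 of the 4 intronic peaks were not unique. The number of peaks lying in each stretch was put over its length after both counts were known, and the assigned peaks alone gave 7.48 per Mb in place of 8.50. Of 44 values under alternatives that answer a comparison, 34 stayed within the spread or 1.5 times and 10 moved. Of 24 for single genes 10 moved, among them Etv1 with 5 peaks and Zic4 with 1 at or above the list's median score. Protein-coding TSSs gave 25 peaks and 25 of the 37 lineage genes, and counting peaks within 10 kb as 1 gave 18 peaks. The share of 50.9% of all protein-coding genes is from the authors' assignment, so it cannot be set beside these 25 genes. With protein-coding TSSs, all protein-coding genes had a median of 1 peak, with quartiles of 0 and 2. Any overlap with a RefSeq gene body gave 63.6% intergenic. The repeat groups were counted by cluster after seeing the data, and the share of L1 was then 38.9%. Without library depth, no error can be given for any score or for the difference from mutant BG.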
